A study of Mus musculus with 3 samples.

Results

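The genes described here encode the E proteins (Tcf3, Tcf4 and Tcf12), the Id inhibitors (Id1, Id2 and Id3), and the related factors Lyl1 and Tal1. They were chosen by name, as every probe set annotated to 1 of these symbols. Each of the 8 genes had 1 probe set, so they are 8 of the 19938 genes with a named probe set. Thymocytes (T cells developing in the thymus) were compared between mice without TCF-1 (genotype TCF-1-/-, age 8 weeks), β-catenin transgenic mice (age 16 weeks) and wild type mice (WT, age 12 weeks). TCF-1 is a DNA-binding factor of the Wnt pathway and β-catenin is its co-activator. The labels name neither the promoter of the transgene nor the strain, the allele or any pooling of animals, and no cell sort.

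E proteins are basic helix-loop-helix factors that bind DNA as dimers at E-boxes, the sequence CANNTG. Tcf12 (HEB) and Tcf3 (E2A) are the E proteins best known for work in thymocytes, where they drive antigen receptor gene assembly and hold cells at the developmental checkpoints. Id proteins have the helix-loop-helix but no basic region, so they pair with E proteins and keep them off DNA. Signals from the pre-T cell receptor and the T cell receptor raise Id3 through EGR factors, and the loss of E protein activity then lets cells pass the checkpoint. Lyl1 and Tal1 pair with E proteins too, are used in blood progenitors, and are expressed out of place in human T cell leukaemia. The symbols invite confusion in a study of TCF-1: Tcf3 and Tcf4 here are E proteins, and the Wnt-pathway genes once called by the same names are Tcf7l1 and Tcf7l2. Probe sets were matched by the current symbol and its Entrez gene number.

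Promoter windows of Id2, Lyl1 and Id3 are shown because these genes had the larger differences among those with an entry in the RefSeq promoter table. That table (GRCm38.p6) held 6 of the 8 genes. It had no entry for Id1 and Tcf4. Each window ends at the annotated start or, for Lyl1, where another annotated transcript of the gene begins, and runs 5′ to 3′ on the strand of the gene. Capitals mark the E-box. The windows are chr12:25096093-25096342 on the minus strand for Id2, chr8:84701207-84701422 on the plus strand for Lyl1, and chr4:136143572-136143821 on the plus strand for Id3.
Id2: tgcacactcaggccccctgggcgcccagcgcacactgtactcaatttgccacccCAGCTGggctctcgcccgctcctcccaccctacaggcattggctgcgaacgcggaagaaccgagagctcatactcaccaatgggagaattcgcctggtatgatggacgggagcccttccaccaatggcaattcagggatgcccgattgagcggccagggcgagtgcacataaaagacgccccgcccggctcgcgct
Lyl1: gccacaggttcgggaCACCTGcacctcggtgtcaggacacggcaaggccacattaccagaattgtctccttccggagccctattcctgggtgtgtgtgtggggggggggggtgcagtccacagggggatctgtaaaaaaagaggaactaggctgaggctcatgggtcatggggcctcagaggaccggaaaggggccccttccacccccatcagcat
Id3: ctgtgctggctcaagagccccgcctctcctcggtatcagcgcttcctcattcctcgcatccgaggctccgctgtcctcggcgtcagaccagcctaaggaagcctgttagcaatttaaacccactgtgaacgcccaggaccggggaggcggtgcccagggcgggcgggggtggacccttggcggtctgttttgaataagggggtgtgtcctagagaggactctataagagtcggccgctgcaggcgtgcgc
In the 250 bases before the start, Id2 had 1 E-box (CAGCTG, first base at position -196, with -1 the base before the start) and Lyl1 had 1 (CACCTG, position -235), while Id3 had 0. An E-box was found in 66.2% of the 32851 windows of this length in the table, so its presence is common. For Tcf3, 1 E-box was found at position -54. Of the 3 Tcf12 windows, 2 held an E-box, and the 2 Tal1 windows held none. A TCF/LEF motif (CTTTGNN with A or T at each N, on either strand) was found in 14.8% of windows. Lyl1 held 1 at position -23, outside the printed stretch, and 1 Tcf12 window held 1, at position -169. The EGR motif GCGNGGGCG, searched on both strands, was in none of the members' windows and in 4.70% of all windows. These are matches of letters and not measured binding sites.

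The table held 35556 probe sets on 3 arrays, 1 per genotype, with values on a log2 scale taken as RMA output. With 1 array per genotype no difference has a replicate check, no test across samples is possible, and precision is limited by the number of arrays. Differences of at least 1 on the log2 scale (2-fold) were called by size. Genotype and age cannot be told apart, and Xist was at 12.17 without TCF-1, 4.86 with the transgene and 12.49 in wild type, so the transgenic array also differs in sex-linked transcripts. The TCF-1-deficient array shared its value with wild type to the last digit for 36.4% of genes, and the transgenic array for 53.3%. An identical value is therefore not a measured equality. In whole thymocyte suspensions, a different share of cells and a different level per cell cannot be told apart. Of 17 measured genes of CD4+CD8+ double-positive thymocytes, the main cells of the thymus, 16 reached the median level over genes (6.90) on at least 1 array, and Rag1 was at 11.09, 13.13 and 13.04 on the TCF-1-deficient, transgenic and wild type arrays. Without TCF-1, 14 of these 17 genes were lower than in wild type by at least 2-fold, where 2.62% of all genes were. Of 13 genes listed for the earlier DN3 stage 10 were higher, where 1.33% of all genes were. The 13 include Cd44, which is not a positive marker of that stage (-0.91 without TCF-1 and 1.68 with the transgene). The part of this stage difference in the values below was not tested.

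The E proteins differed by at most 0.32 between any of the 3 arrays, while Id2 spanned 1.27. On the TCF-1-deficient array Id2 and Id1 were above wild type, and on the transgenic array Id2 and Id3 were below it. None of the 8 genes differed by at least 2-fold between the TCF-1-deficient and the wild type array, where 3.96% of all genes did (1.33% higher and 2.62% lower), nor between the transgenic and the wild type array, where 0.246% did. Between the transgenic and the TCF-1-deficient array 1 of 8 did, which was Id2, lower on the transgenic array, against 4.02% of all genes in either direction and 1.57% lower. At 1.5-fold, 2 of the 8 genes were higher without TCF-1 than in wild type (Id2 and Id1), against 4.04% of all genes, and 2 were lower on the transgenic than on the TCF-1-deficient array (again Id2 and Id1), against 4.4%. None was past 1.5-fold between the transgenic and the wild type array, where 1.15% of genes were. Over the 8 genes the median difference was 0.04 for TCF-1-deficient minus wild type and 0.0014 for transgenic minus wild type, and over all genes it was 0 in both. With 8 genes, 1 or 2 calls are too few to be set apart from these shares.

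**Figure D1:**
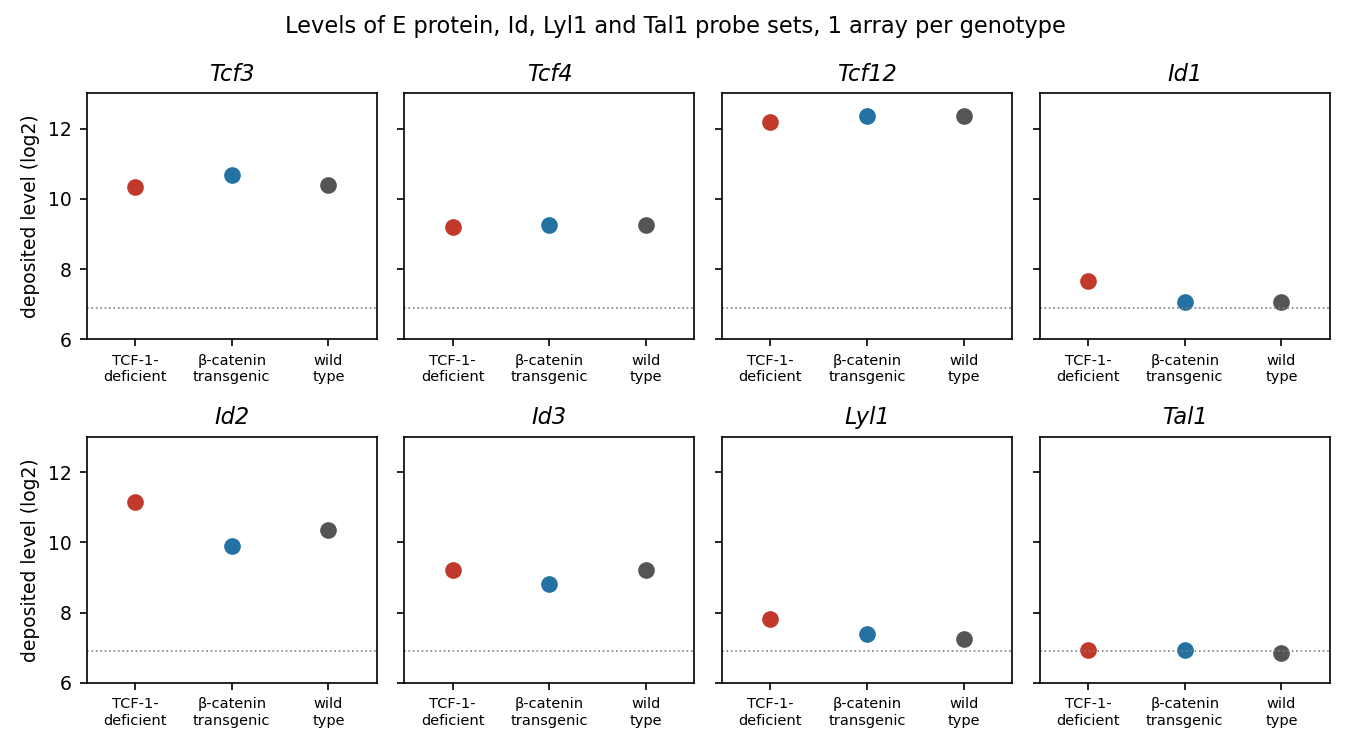
Deposited log2 level of each of the 8 genes (vertical axis) on the TCF-1-deficient, β-catenin transgenic and wild type arrays (horizontal axis), 1 point per array and no error bar because there is 1 array per genotype. The dotted line is the median level over genes, 6.90. Id2 spans 1.27 between its highest and lowest array, and Tcf4 spans 0.03.

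Tcf12, which encodes HEB, was at 12.19 without TCF-1, 12.36 with the transgene and 12.36 in wild type. Without TCF-1 it differed from wild type by -0.17, a size that 37.2% of genes matched or exceeded, and it differed by 0.0028 with the transgene. HEB is a main E protein of thymocytes at the double-positive stage. Tcf3, which encodes the splice forms E12 and E47, was at 10.35 on the TCF-1-deficient, 10.68 on the transgenic and 10.39 on the wild type array. Its transgenic level was the highest of the 3, by 0.29 over wild type, and 6.21% of genes differed at least as much in that comparison. Without TCF-1 the difference from wild type was -0.04. Tcf4, which encodes E2-2, the E protein that specifies plasmacytoid dendritic cells, was at 9.21 without TCF-1 and at 9.24 on both the transgenic and the wild type array, where the deposited value was identical. Siglech, a marker of plasmacytoid dendritic cells, was at 6.33 on all 3 arrays. Of 12 measured genes of those cells, 1 was higher without TCF-1 by at least 2-fold, Spib (1.10), against 1.33% of all genes. Spib also stands in the DN3 list. Another 2 of the 12 were lower, Ccr9 (-1.81) and Ly6d (-1.50), both also abundant in thymocytes, against 2.62% of all genes lower. The small negative differences of Tcf3 and Tcf4 without TCF-1 turned to 0.09 and 0.10 when arrays were centred on their medians, so no direction can be given for either.

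Id2, the inhibitor that innate lymphoid, natural killer and γδ T cells rely on, was at 11.16 without TCF-1, 9.89 with the transgene and 10.36 in wild type. The order of its levels was thus TCF-1-deficient, wild type, transgenic, and the 3 levels were spread over 1.27, the widest span of the 8 genes. Without TCF-1 it was 0.80 above wild type (1.75-fold), and 6.03% of genes differed at least as much. With the transgene it was 0.46 below wild type (1.38-fold), and 2.21% of genes differed at least as much. Transgenic minus TCF-1-deficient was -1.27 (2.41-fold), past the size rule. Both differences from wild type use the same wild type array.

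Genes of natural killer, innate lymphoid and cytotoxic cells were set beside Id2. Of 16 measured, 2 were higher without TCF-1 than in wild type by at least 2-fold (1.33% of all genes were), Gzma, a granzyme (2.65), and Cd160, a receptor of cytotoxic and intraepithelial lymphocytes (2.12), and 1 was lower (2.62% of all genes were), Klrb1c, which encodes NK1.1 (-1.06). With the arrays centred on their medians Klrb1c was at -0.93, under the size rule. The median of the list was 0. The next largest differences were those of the lectin-like receptors Klrk1 (-0.64) and Klrd1 (-0.58), and Eomes, a defining factor of natural killer cells, was at 6.17 on all 3 arrays. Klrb1c, Klrk1, Klrd1 and Eomes are among the 8 of these 16 genes that were under the median level over genes on every array. Their values are thus those of dim probe sets. The linear levels of the 16 genes summed to 6277 on the TCF-1-deficient, 3018 on the transgenic and 3510 on the wild type array. This sum rests on Gzma: without it the sums were 3176, 2646 and 3015 in the same order. The 13 measured genes of the DN3 list, Cd44 among them, summed to 25995, 5516 and 6925 in that order. Their medians were 1.79 for TCF-1-deficient minus wild type and -0.29 for transgenic minus wild type. The DN3 list was led by Mpzl2, a cell adhesion molecule (4.13), Heyl (3.19) and Dtx1 (3.03), both induced by Notch, and Cpa3, a mast cell and progenitor protease (2.92). The part of these cells in the Id2 difference was not tested.

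The genes whose pair of differences lay nearest to that of Id2 were Celsr1, a planar cell polarity cadherin, Bcap29, an endoplasmic reticulum protein, and Il17rb, a receptor for IL-25. The measure was the Euclidean distance between the 2 differences from wild type, over 3 arrays and 9496 candidate genes, and the distances were 0.007, 0.051 and 0.052 log2 units. Celsr1 was at 9.56 on the TCF-1-deficient, 8.30 on the transgenic and 8.76 on the wild type array.

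Id3, the inhibitor induced by antigen receptor signals, was at 9.21 without TCF-1, 8.82 with the transgene and 9.21 in wild type. The TCF-1-deficient and wild type values were identical to the last digit. The transgenic value was 0.39 below wild type, and 3.36% of genes differed at least as much. Of 9 EGR and NFAT genes with their NAB cofactors, which act on Id3, 2 were lower than wild type without TCF-1 by at least 2-fold and 0 higher, against 2.62% and 1.33% of all genes. Of the 9, 3 had the same value as wild type (Egr3, Nab1 and Nfatc2), and the median was -0.32. Egr2 was at 7.10 on the TCF-1-deficient, 9.13 on the transgenic and 9.39 on the wild type array, a difference of -2.29 without TCF-1. Nfatc3, a calcium-regulated factor, was the other (-1.19). Under the size rule lay Egr1 (-0.93), Nab2, a co-repressor of EGR factors (-0.45), and Egr4 (0.13). With the transgene 0 of the 9 were beyond 2-fold. Of 15 single-positive genes, which mark cells after selection, 3 were lower without TCF-1 by at least 2-fold and 1 was higher. Of all genes 2.62% were lower and 1.33% higher. The lower genes were Cd69 (-2.24), Cd52 (-1.66) and Cd40lg (-1.62), and the higher gene was Itgae (1.66). The median of the 15 was -0.25 without TCF-1 and -0.32 with the transgene. With the transgene 0 of the 15 were beyond 2-fold, against 0.246% of all genes. At 1.5-fold 4 were lower with the transgene and 1 was higher, against 1.15% of all genes in either direction. The part of mature cells in the lower transgenic Id3 value was not tested.

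Id1, an inhibitor of endothelial and progenitor cells that BMP signals induce, was at 7.66 without TCF-1 and at 7.05 on both other arrays, where the transgenic and wild type values were identical. The TCF-1-deficient array was thus 0.61 higher (1.53-fold), and 10.0% of genes differed at least as much. All 3 levels were near the median over genes, so this is a dim probe set. Of 12 endothelial genes 0 were beyond 2-fold in either comparison with wild type, with a median of 0.11 without TCF-1. Cldn5, a claudin (0.66), Pecam1 (-0.47), Egfl7 (0.28) and Eng (-0.27) differed most. Of 26 genes of BMP and TGF-β signalling, 2 were higher without TCF-1 than in wild type, Bmp7, a BMP ligand (1.52), and Smad3, which carries TGF-β signals (1.17), and 1 was lower, Smad1, which carries BMP signals (-1.50), against 1.33% and 2.62% of all genes. Bambi, a decoy receptor, differed by -0.78, and the inhibitory Smad6 differed by 0.45. With the transgene 0 of the 26 were beyond 2-fold. Id4, the remaining Id gene, was at 6.55 on the TCF-1-deficient, 6.26 on the transgenic and 6.11 on the wild type array, below the median level over genes on each.

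**Figure D2:**
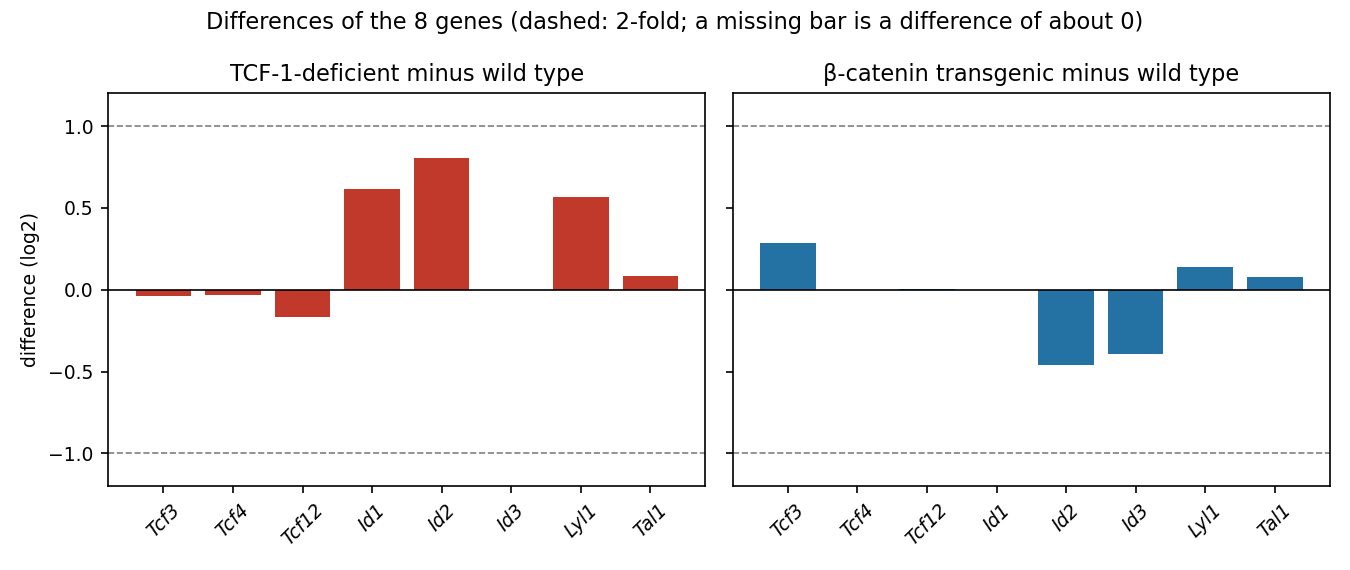
Log2 difference from wild type (vertical axis) for each of the 8 genes on the TCF-1-deficient array (left, red) and the β-catenin transgenic array (right, blue), with dashed lines at 2-fold. Id2 is at 0.80 on the left and -0.46 on the right, and no bar reaches a dashed line.

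Each Id gene was also set against each E protein gene, as a description, since none of the 6 genes was past 2-fold against wild type. The ratio of 1 Id gene to 1 E protein gene within an array does not depend on how that array was centred, and only its change between arrays was read. For TCF-1-deficient minus wild type, the ratio of Id2 to the 3 E proteins differed by 0.84 to 0.97 and that of Id1 by 0.65 to 0.78. The ratios of Id3 differed by 0.03 to 0.17 and have no direction to read, since Id3 had the wild type value and the E protein differences were as small. For transgenic minus wild type, the ratio of Id2 differed by -0.75 to -0.46 and that of Id3 by -0.68 to -0.39, while that of Id1 lay between -0.29 and 0. For transgenic minus TCF-1-deficient, the ratio of Id2 differed by -1.59 to -1.30. The ratios are made from 6 genes and are not independent, and the comparisons share arrays.

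**Figure D3:**
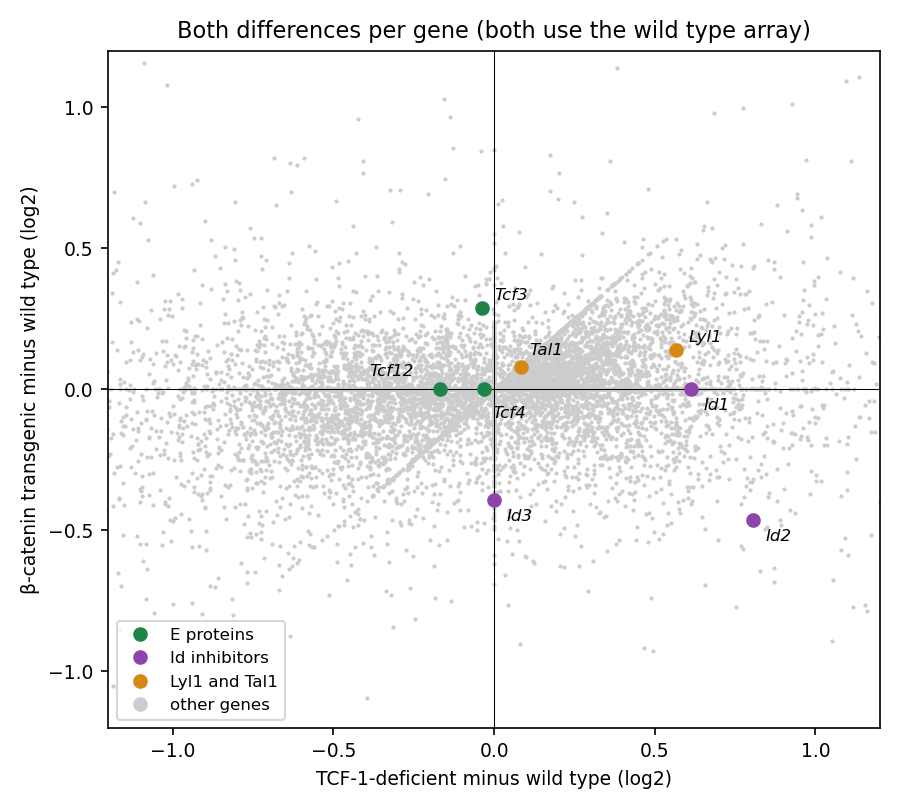
Each point is 1 gene, with TCF-1-deficient minus wild type on the horizontal axis and β-catenin transgenic minus wild type on the vertical axis, both in log2 units and both using the wild type array, with 558 genes outside the axes. The E proteins (green) lie near the centre, Id2 (purple) lies at 0.80 and -0.46, and the many grey points on the axes and the diagonal are genes with the same deposited value on 2 arrays.

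Lyl1 was at 7.81 without TCF-1, 7.38 with the transgene and 7.25 in wild type. It was 0.57 above wild type without TCF-1 (1.48-fold), where 11.6% of genes differed at least as much, and 0.14 above it with the transgene. The Lyl1 levels exceeded those of 63.3% of genes without TCF-1, 57.7% with the transgene and 55.6% in wild type. Like that of Id1, this is a dim probe set. Lmo2, the adaptor that joins LYL1 or TAL1 to LDB1, was at 7.22 without TCF-1, a difference of 0.52. On both other arrays Lmo2 was at 6.70, under the median level over genes. Of 14 early progenitor genes 2 were higher without TCF-1 by at least 2-fold, where 1.33% of all genes were. They were Cd93, a receptor of early progenitors (1.88), and Mef2c (1.21), while the myeloid and progenitor factor Spi1 was identical on all arrays at 6.78. Cd44 differed by -0.91 without TCF-1 and was the 1 early progenitor gene beyond 2-fold with the transgene (1.68), against 0.246% of all genes. Bcl11a differed by 0.55 without TCF-1. Of 14 myeloid genes 3 were higher without TCF-1 by at least 2-fold (1.33% of all genes were), Ly86 (4.01), Cybb (1.55) and Lyz2 (1.12), with Cd14 next at 0.64. The myeloid linear levels summed to 4916 on the TCF-1-deficient, 1849 on the transgenic and 1565 on the wild type array. This sum rests on Ly86: without it the sums were 2026, 1586 and 1386 in the same order, and the median difference of the list without TCF-1 was 0.21. The part of progenitor or myeloid cells in the Lyl1 difference was not tested.

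Tal1 was at 6.93 on the TCF-1-deficient, 6.92 on the transgenic and 6.85 on the wild type array, at or next to the median level over genes. Its differences from wild type were 0.08 in both comparisons. TAL1 is also a factor of red cell precursors, and of 10 erythroid genes (haemoglobin genes were not analysed here) Alas2, the haem synthesis enzyme of red cells, was at 8.28 on the TCF-1-deficient, 8.25 on the transgenic and 7.14 on the wild type array. Alas2 was the 1 gene of the 10 higher by at least 2-fold without TCF-1 (1.14), where 1.33% of all genes were. Car2 was the 1 lower gene (-1.15), where 2.62% of all genes were. With the transgene Alas2 was the 1 gene beyond 2-fold (1.11), against 0.246% of all genes in either direction. Klf1, Gata1 and Rhag were identical on all 3 arrays. They are among the 7 of these 10 genes under the median level over genes on every array. Epor differed by 0.56 without TCF-1.

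Of 19 genes of E protein complexes, 1 was lower without TCF-1 by at least 2-fold and 0 were higher, against 2.62% and 1.33% of all genes. The 1 gene was Ssbp2, which stabilises the LDB1 adaptor, at 10.91 on the TCF-1-deficient, 12.79 on the transgenic and 12.55 on the wild type array (-1.65). The histone acetyltransferase Ep300, a co-activator of E proteins, differed by -0.98, the acetyltransferase Kat2b by -0.74 and the ETO-family co-repressor Cbfa2t2 by -0.70. Runx1 was identical on all 3 arrays at 11.44. With the transgene 0 of the 19 were beyond 2-fold. Another 40 helix-loop-helix genes were measured, Id4 and many tissue-specific partners of E proteins among them. Of these, 0 were beyond 2-fold in either comparison with wild type, and 33 of the 40 stayed under the median level on every array. For transgenic minus TCF-1-deficient 1 of the 40 was beyond 2-fold, Olig3 (1.17), against 4.02% of all genes in either direction. The largest differences without TCF-1 were those of Hand2 (0.45), Id4 (0.44), Neurog3 (0.44) and Ptf1a (0.43).

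Genes listed as E protein targets in lymphocytes lay in both directions without TCF-1. Of the 29 measured, 7 were higher and 8 lower than wild type by at least 2-fold, against 1.33% and 2.62% of all genes, with a median of 0. With the arrays centred on their medians 8 were higher and 7 lower, as Ebf1 (1.08) passed the size rule and Cd28 (-0.93) no longer did. The shares of all genes were not recomputed after centring. With the transgene 0 were beyond 2-fold, or 1 after centring, Cd79a (1.05). The lower genes were Cd4 (-3.74), the recombinase genes Rag1 (-1.95) and Rag2 (-1.44), Themis, a signalling adaptor of thymocyte selection (-1.75), Socs1, a cytokine signalling inhibitor (-1.55), Cd8a (-1.45), Arpp21 (-1.17) and Cd28 (-1.06). Of these 8, 6 also stand in the double-positive list. The higher genes were Dtx1 (3.03), the Notch-induced repressor Hes1 (2.74), the B cell receptor component Cd79a (2.53), Il2ra (2.06), Ptcra, the pre-T cell receptor α chain (1.79), Notch3 (1.60) and Notch1 (1.54). Of these 7, 6 also stand in the DN3 list, and Cd79a is a B lymphocyte gene. Of 15 measured B lymphocyte genes 5 were higher without TCF-1 (1.33% of all genes were), Cd79a, Fcmr (1.86), Ms4a1 (1.64), Bank1 (1.52) and Fcer2a (1.52), and 0 were lower, with a median of 0.95. Their linear levels summed to 4212 on the TCF-1-deficient, 2526 on the transgenic and 2147 on the wild type array. Ebf1, the B cell factor that E2A induces, was at 7.21 on the TCF-1-deficient, 6.36 on the transgenic and 6.26 on the wild type array.

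**Figure D4:**
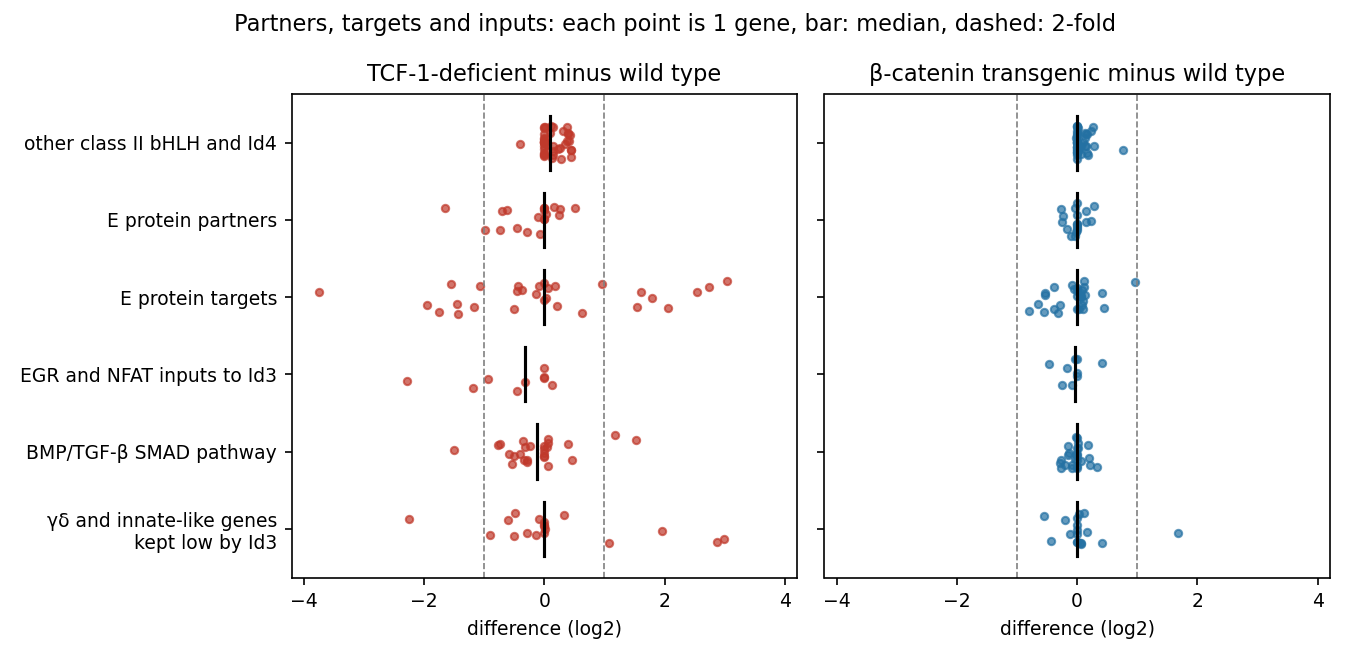
Log2 differences from wild type (horizontal axes) for the genes of 6 lists (rows) on the TCF-1-deficient array (left) and the β-catenin transgenic array (right), 1 point per gene, with a bar at the list's median and dashed lines at 2-fold. Among E protein targets 7 genes lie right of the 2-fold line and 8 left of it without TCF-1, and 0 lie beyond it with the transgene (8, 7 and 1 after centring the arrays).

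Genes listed as kept low by Id3 in γδ and innate-like T cells did not move as 1 group. Of 18 measured, 4 were higher without TCF-1 than in wild type by at least 2-fold, where 1.33% of all genes were. They were Blk, a kinase of γδ T and B cells (2.99), Maf (2.86) and Sox13 (1.95), both transcription factors of γδ T cells, and Il23r, a cytokine receptor (1.08). Il23r was under the median level over genes on every array, and with the filter on dim genes 3 of 12 were higher. Slamf1, a co-stimulatory receptor also found on double-positive cells, was the 1 lower gene (-2.26), where 2.62% of all genes were lower. The median of the list was 0. Zbtb16, which encodes PLZF, the factor of innate-like T cells, was identical on all arrays at 6.86. With the transgene Cd44 was the 1 gene of this list beyond 2-fold (1.68), against 0.246% of all genes. Among the Wnt-pathway genes that share old names with the E proteins, Tcf7l2 was at 6.70 on the TCF-1-deficient and 7.24 on both other arrays, Tcf7l1 at 6.85 and, on both other arrays, 6.62, and Lef1 at 12.46, 11.65 and 11.92 on the TCF-1-deficient, transgenic and wild type arrays. None of these 3 was beyond 2-fold.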

How the data were processed

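Total RNA of thymocytes passed through a cell strainer was labelled by the Affymetrix whole-transcript sense target assay, per the labels' protocols. The values deposited by the authors were read as log2: RMA and Partek are named, per the submitters' processing notes, and the values run from 1.73 to 14.8. Neither the log base nor versions, settings or a build were stated (not given in the sources used here). Probe sets were named from the platform annotation. Those with several symbols (1621) were left out, and for the 999 genes with several probe sets the brightest was used. Differences are log2 values of 1 array minus another, called at 1 (2-fold). The code that makes the calls was run on simulated arrays, which does not measure the noise of the real arrays. With 1 array per genotype there is no test. The 8 genes and the gene lists were chosen with earlier results of these data known. Named genes were taken from the 8 genes, up to 4 per list with the largest difference without TCF-1, and further members past 2-fold. The 3 genes nearest to a member spanning at least 1 were also named. Not every gene that these rules allow is named, above all in the double-positive list. Other genes named (Xist, Uty, Eif2s3y, Kdm5d, Lmo2, Smad6, Klrd1, Siglech, Eomes, Spi1, Klf1, Gata1, Rhag, Runx1, Egr3, Egr4, Nab1, Nfatc2, Itgam, Zbtb16, Ebf1) were chosen after their values were seen. The gene that is disrupted in the TCF-1-deficient mice is not reported here. Alternatives were size rules of 1.5-fold and 3-fold, centring on array medians, loess (span 0.3), the mean over probe sets and a filter on dim genes. Motifs were searched in RefSeq promoter windows of GRCm38.p6. Python 3.11.15, NumPy 2.4.6, pandas 2.3.3, statsmodels 0.14.6 and matplotlib 3.10.9 were used.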

Additional observations from a re-analysis of the deposited data

How the results depend on the processing

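With a size rule of 1.5-fold in place of 2-fold, 2 of the 8 genes were called without TCF-1 against wild type (Id2 and Id1, both higher, against 4.04% of all genes higher), 0 between the transgenic and wild type arrays, and 2 between the transgenic and TCF-1-deficient arrays (Id2 and Id1, both lower). Lyl1, at 0.57, lay just under the 1.5-fold limit of 0.58. With a size rule of 3-fold, 0 were called between the transgenic and TCF-1-deficient arrays, so the call of Id2 ends there by the rule itself. Centring, loess, the mean over probe sets and the filter on dim genes left the 3 counts of members past 2-fold at 0, 0 and 1. Centring adds 0.13 to TCF-1-deficient minus wild type and 0.08 to transgenic minus wild type. Id2 then stood at 0.94 and -0.38, and it ranged from -1.32 to -1.27 for transgenic minus TCF-1-deficient over all settings. After loess the Id to E protein ratios lay between 0.02 and 0.96 without TCF-1, and between -0.75 and 0.004 with the transgene. Centring brought the B lymphocyte genes past 2-fold without TCF-1 from 5 of 15 to 8 of 15. The filter on dim genes left 6 of these genes, 3 of them past 2-fold. The share of all genes past 2-fold was not recomputed after centring or the filter. With the transgene, centring took the genes past 2-fold from 0 to 1 among E protein targets and B lymphocyte genes (Cd79a in both) and among myeloid genes (Itgam, 1.04). Without TCF-1 and with the filter on dim genes, 1 of 7 natural killer and cytotoxic genes and 1 of 6 early progenitor genes were past 2-fold. Leaving out the gene that differs most from each marker sum was chosen after seeing the data. No paired analysis was possible because each genotype has 1 array.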
